A study of Mus musculus with 4 samples.

Results

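The small leucine-rich proteoglycans of the extracellular matrix were followed in mouse skeletal muscle. The genes were taken by name, as members of 1 gene family: Dcn (decorin), Lum (lumican), Bgn (biglycan), Fmod (fibromodulin), Ogn (osteoglycin), Prelp (proline- and arginine-rich end leucine-rich repeat protein) and Aspn (asporin). All 7 were rows of the table of 16472 genes. Skeletal muscle of wild-type mice (genotype WT) gave 2 RNA sequencing libraries of isolated mitochondria and 2 of a second fraction, called remaining tissue here. The labels used here name no strain, age or agent, only the fraction, and nothing says whether the libraries came from separate animals, so that p-values measure only the spread between these libraries. The sources differ on remaining tissue: 1 label describes it as lacking mitochondria, whereas its titles call it total and a legend of the study speaks of lysate of total muscle.

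Small leucine-rich proteoglycans are secreted core proteins that form a curved array of leucine-rich repeats and bind collagen fibrils, where they control fibril width and spacing. Several of them carry chondroitin or dermatan sulfate chains and others keratan sulfate chains, and decorin and biglycan also bind growth factors of the TGF-β family. In skeletal muscle their RNA is made mainly by fibroblasts and tendon cells of the connective tissue rather than by myofibres. Their genes lie in the nucleus, and the proteins are translated at the endoplasmic reticulum for secretion.

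The family is divided into classes by the spacing of 4 cysteines in front of the repeats. The stretches that code for this cluster are shown because they place each gene in its class independently of its expression. They were read from GENCODE M21 transcripts on GRCm38 in the 5′ to 3′ direction of the gene, and capitals mark the 4 cysteine codons.
Dcn: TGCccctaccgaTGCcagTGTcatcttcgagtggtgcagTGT
Bgn: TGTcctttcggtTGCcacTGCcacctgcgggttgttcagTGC
Aspn: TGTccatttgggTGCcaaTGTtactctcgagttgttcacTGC
Lum: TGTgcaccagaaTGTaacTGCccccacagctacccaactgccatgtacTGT
Fmod: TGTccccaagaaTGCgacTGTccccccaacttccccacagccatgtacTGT
Prelp: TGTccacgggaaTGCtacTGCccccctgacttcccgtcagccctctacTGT
Ogn: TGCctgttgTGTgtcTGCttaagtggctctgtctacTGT
The clusters of Dcn, Bgn and Aspn, the class I genes, had 3, 1 and 6 residues between successive cysteines. Lum, Fmod and Prelp, of class II, had 3, 1 and 9. Ogn, of class III, had 2, 1 and 6. The Dcn stretch lies at chr10:97483507-97483548 and the Lum stretch at chr10:97568353-97568403, both on the plus strand. The Bgn stretch is at chrX:73490979-73491020 (plus strand), and that of Fmod is at chr1:134040449-134040499 (plus strand). The Prelp stretch is at chr1:133915151-133915201 on the minus strand. Those of Ogn and Aspn lie on the plus strand of chromosome 13, at chr13:49615566-49615604 and chr13:49551865-49551906. Each stretch lies within 1 coding exon. The encoded proteins were most alike within a class: Dcn and Bgn shared 56.9% of 353 aligned residues, Bgn and Aspn 53.0% of 366, and Lum and Fmod 47.5% of 335, whereas Dcn and Fmod shared 29.6% of 328. No other annotated transcript held a stretch of at least 50 nucleotides with 90% identity to 6 of the genes. The exception was Prelp, which matched the antisense gene Gm15851 that overlaps it.

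Most RNA of the isolated mitochondria was mitochondrial. Genes of the mitochondrial genome made up 95.3% and 94.1% of the counts in replicates 1 and 2 of isolated mitochondria, against 22.3% and 20.5% in remaining tissue. Nuclear genes outside copies of the mitochondrial genome kept 100924 and 181152 reads in the mitochondrial libraries, against about 11989431 and 11968472 estimated for remaining tissue. Values below are normalized counts, gene counts that the authors divided by a size factor for each library. In isolated mitochondria 1 read was worth 9.05 normalized counts in replicate 1 and 5.06 in replicate 2, while in remaining tissue 1 normalized count stood for about 7.05 reads. Myofibre markers held 36.1% and 35.1% of the nuclear normalized counts in remaining tissue and 9.73% and 8.61% in isolated mitochondria.

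The direction of the comparison depended on what the genes were set against. As a share of all counts, the 7 genes together made up 0.0316% and 0.0280% in remaining tissue, and 0.000662% and 0.00167% in isolated mitochondria, which was 25.6-fold less on the group means. The 95% Wilson intervals of these shares, which cover counting error only, were 0.0307 to 0.0325% and 0.0272 to 0.0288% in remaining tissue, and 0.000589 to 0.000744% and 0.00154 to 0.00181% in isolated mitochondria. Among nuclear genes outside copies of the mitochondrial genome, they made up 0.0414% and 0.0358% in remaining tissue and 0.281% and 0.326% in isolated mitochondria, which was 7.86-fold more. The intervals here were 0.0403 to 0.0426% and 0.0347 to 0.0369% in remaining tissue and 0.250 to 0.315% and 0.300 to 0.353% in isolated mitochondria. The groups did not overlap on either scale. RNA of these genes was thus scarce in isolated mitochondria in total, at 283 and 590 reads, but took a larger part of the few nuclear reads that were there. The fold changes below use the deposited normalization, which sets the typical nuclear gene near equality, and describe position among nuclear genes. In bulk RNA, fewer cells of a type and less RNA per cell cannot be told apart.

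On that scale 6 of the 7 genes had both libraries of isolated mitochondria above both of remaining tissue, as did 25.5% of the 6916 genes tested. Fmod had both below, as did 43.7% of genes tested. The limma test with Benjamini-Hochberg adjustment over all genes tested called 3 of the 7 genes higher in isolated mitochondria (Dcn, Lum and Prelp), against 7.32% of all genes. It called none of the 7 lower, against 9.3% of all genes. At an unadjusted p under 0.05, 5 of the 7 passed, all higher, against 15.1% of all genes higher and 21.9% lower. On recovered or estimated reads with the deposited size factors, edgeR and DESeq2 each called 6 of the 7 higher and none lower. Over all genes edgeR called 13.6% higher and 17.6% lower, and DESeq2 16.9% higher and 19.2% lower. Over all genes, limma called 506 higher and 643 lower, which became 1107 and 183 when libraries were scaled to nuclear genes outside copies, 602 and 483 when scaled to the upper quartile, and 38 and 6694 when all-gene totals were made equal. Their log2 fold change was above 0 for 6 of 7 genes and for 36.9% of all genes, and its median was 1.91 over the 7 genes and -0.44 over all genes tested. Aspn is among the higher genes in each of these counts of the 7 but the adjusted limma call. Its mean in remaining tissue was under the minimum of 20, so that it entered the test only through its higher group. With 2 libraries a group, an exact two-sided permutation test of a single gene cannot give a p below 0.333.

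**Figure D1:**
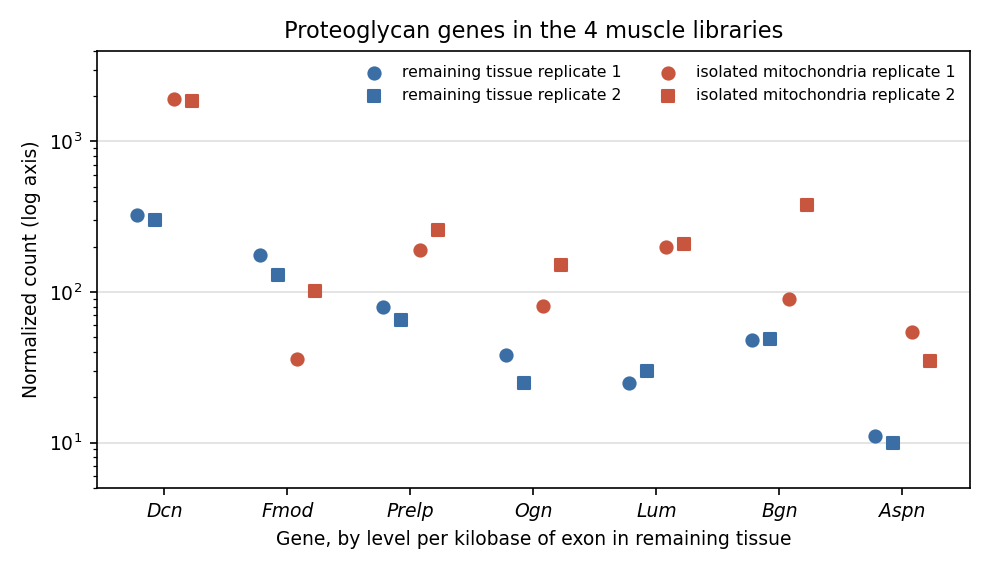
Normalized counts (vertical log axis) of the 7 genes, ordered by level per kilobase of exon in remaining tissue, in the 2 libraries of remaining tissue (blue) and the 2 of isolated mitochondria (red); circles are replicate 1 and squares replicate 2. The red points lie above the blue ones for every gene but Fmod, and the 2 red points are farthest apart for Bgn, at 90 and 379.

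Dcn encodes decorin, a collagen-binding proteoglycan with a single chondroitin or dermatan sulfate chain. The gene (ENSMUSG00000019929, chr10:97479609-97518143, plus strand) had the highest level of the family in every library. Its normalized counts were 326 and 300 in remaining tissue and 1909 and 1852 in isolated mitochondria. The latter rested on 211 and 366 reads. The 2 libraries of a group lay close together and the groups were far apart. Dcn was 6.01-fold higher in isolated mitochondria, with a log2 fold change of 2.58 ± 0.16 (SE, n = 2 libraries a group, limma adjusted p = 0.00780). Only 6.22% of the genes tested had a larger fold change.

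Lum, beside Dcn on the same strand (ENSMUSG00000036446, chr10:97565128-97572703), encodes lumican, a keratan sulfate proteoglycan best known from the cornea. It had 25 and 30 normalized counts in remaining tissue and 199 and 207 in isolated mitochondria (22 and 41 reads). In the main fit this was the largest fold change of the 7 genes, 7.38-fold on the means and 2.84 ± 0.24 on the log2 scale (SE, limma adjusted p = 0.0116). At a pseudocount of 10, Dcn was above Lum (log2 2.55 against 2.51), and without isolated mitochondria replicate 1, Bgn was (2.94 against 2.87). The Lum values in isolated mitochondria agreed within counting error, replicate 2 being 1.04 times replicate 1 with an exact 95% interval of 0.606 to 1.84.

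Prelp (ENSMUSG00000041577, chr1:133910304-133921414, minus strand) encodes a basic, heparin-binding member that links collagen to basement membrane. Its normalized counts were 79 and 65 in remaining tissue and 190 and 258 in isolated mitochondria (21 and 51 reads). The rise of 3.11-fold (log2 1.61 ± 0.27, SE) passed the test (limma adjusted p = 0.0332) and was the smallest of the 3 that did. The log2 fold change was 1.75 without remaining tissue replicate 1 and 1.48 without replicate 2, where the call was lost (limma adjusted p = 0.134 and 0.252). With all 4 libraries it was also lost at a minimum mean of 5 (limma adjusted p = 0.0556) and in eBayes without trend (limma adjusted p = 0.0606). Gm15851 overlaps Prelp on the opposite strand. The strand setting of the counting is not given in the sources used here, and without strand the reads of an antisense pair cannot be told apart.

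Ogn and Aspn had higher values in both libraries of isolated mitochondria but did not pass the adjusted threshold. Ogn (ENSMUSG00000021390, chr13:49608046-49624501, plus strand) encodes osteoglycin, or mimecan, a regulator of collagen fibrils. Its normalized counts were 38 and 25 in remaining tissue and 81 and 152 in isolated mitochondria (9 and 30 reads), with a log2 fold change of 1.81 ± 0.44 (SE, limma adjusted p = 0.0658). Aspn (ENSMUSG00000021388, chr13:49544443-49567565, plus strand) encodes asporin, a class I member with a run of aspartates and without the usual attachment site of a glycosaminoglycan chain. It had 11 and 10 normalized counts in remaining tissue and 54 and 35 in isolated mitochondria, the latter from 6 and 7 reads (log2 1.95 ± 0.47, SE, limma adjusted p = 0.0645). Aspn was below the minimum mean of 20 in remaining tissue and entered the test only through its higher group. Both genes lie inside Cenpp, which is on the opposite strand and was not analysed here.

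Bgn (ENSMUSG00000031375, chrX:73483602-73495933, plus strand) encodes biglycan, the close relative of decorin that carries a pair of chains and acts as a ligand of toll-like receptors. Its normalized counts were 48 and 49 in remaining tissue and 90 and 379 in isolated mitochondria, from 10 and 75 reads. Both libraries of isolated mitochondria were higher, but they differed from each other by more than counting error. Replicate 2 was 4.19 times replicate 1, with an exact 95% interval of 2.16 to 9.10. The log2 fold change of 1.91 ± 0.75 (SE) had a 95% interval of -0.14 to 3.96 and did not pass (limma adjusted p = 0.153). It was 0.88 without isolated mitochondria replicate 2 and 2.94 without replicate 1. For the other 6 genes the interval of the same ratio in isolated mitochondria included 1. In remaining tissue, where reads are many, it did not for Fmod (0.728, 0.668 to 0.794), Ogn (0.657, 0.540 to 0.797), Prelp (0.822, 0.725 to 0.932) and Dcn (0.920, 0.867 to 0.977).

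Fmod was the gene with lower values in isolated mitochondria. It encodes fibromodulin, a keratan sulfate proteoglycan abundant in tendon and cartilage, and lies next to Prelp (ENSMUSG00000041559, chr1:134037254-134048277, plus strand). Its normalized counts were 177 and 129 in remaining tissue and 36 and 101 in isolated mitochondria, from 4 and 20 reads. The log2 fold change of -1.31 ± 0.57 (SE) had a 95% interval of -2.88 to 0.26 and did not pass the test (limma adjusted p = 0.182). Of all genes tested, 23.9% had a lower fold change. The log2 fold change was -0.58 without isolated mitochondria replicate 1 (limma adjusted p = 0.239) and -2.04 without replicate 2 (limma adjusted p = 0.0437).

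**Figure D2:**
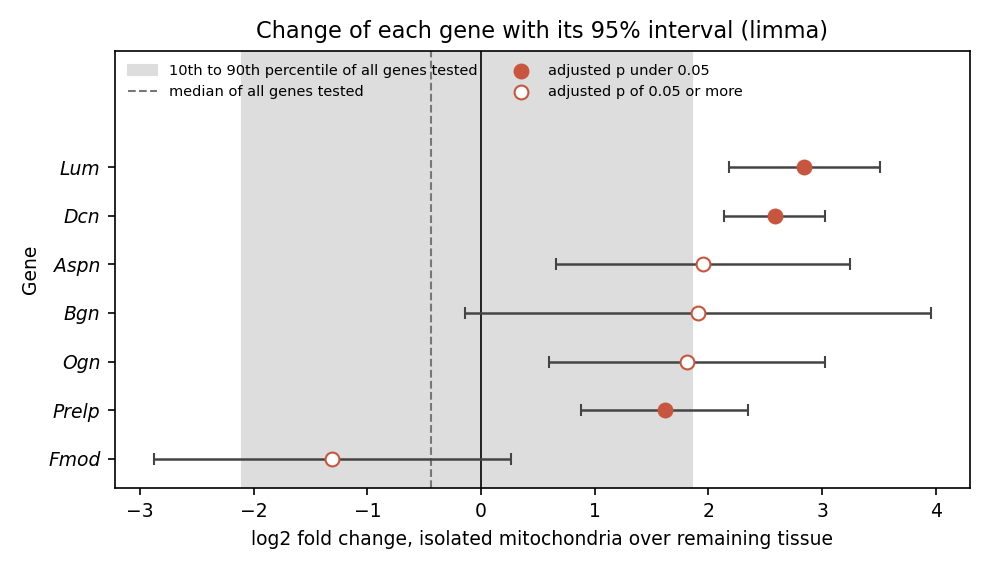
Log2 fold change of each gene, isolated mitochondria over remaining tissue (horizontal axis), with its 95% interval from limma; filled points passed an adjusted p of 0.05, the grey band spans the 10th to 90th percentile of all 6916 genes tested (-2.10 to 1.86), and the dashed line is their median (-0.44). Lum and Dcn lie to the right of the band with intervals that do not reach it, while the intervals of Bgn and Fmod include 0.

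The make-up of the family differed between the fractions, which no scaling of the libraries can change, since each ratio is taken within a library. Dcn made up 46.3% and 49.3% of the summed normalized counts of the 7 genes in remaining tissue, and 74.6% and 62.1% in isolated mitochondria. Fmod stood at 54.3% and 43.0% of Dcn in remaining tissue and at 1.89% and 5.45% in isolated mitochondria, a 13.3-fold lower ratio on the means. Fmod rested on 4 and 20 reads there, and the ratio was 8.92-fold lower without isolated mitochondria replicate 1 and 25.8-fold lower without replicate 2. This was the widest shift against Dcn among the 6 other genes. Prelp was at 24.2% and 21.7% of Dcn in remaining tissue and at 9.95% and 13.9% in isolated mitochondria, with no overlap. Lum was at 7.67% and 10.0% of Dcn in remaining tissue and at 10.4% and 11.2% in isolated mitochondria, so that the ratio of these neighbours moved by 1.22 times. Ogn (11.7% and 8.33% against 4.24% and 8.21%) and Aspn (3.37% and 3.33% against 2.83% and 1.89%) had lower ratios to Dcn in isolated mitochondria. For Ogn the groups were barely apart (8.33% against 8.21%), on 9 and 30 reads in isolated mitochondria. The ratios of Bgn (14.7% and 16.3% against 4.71% and 20.5%) overlapped between the groups. These ratios are descriptions and were not tested.

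Compared per kilobase of annotated exon, Dcn (53.6 ± 3.15 normalized counts per kilobase, SD, n = 2) and Fmod (46.3 ± 10.3) were the most abundant of the 7 genes in remaining tissue, and their libraries overlapped. Prelp followed at 19.9 ± 2.74, below both. Ogn (12.3 ± 3.58) and Lum (11.2 ± 1.44) overlapped each other, and Bgn (7.95 ± 0.12) and Aspn (4.46 ± 0.30) came last without overlap. In isolated mitochondria the order per kilobase was Dcn (322 ± 6.90), Lum (82.9 ± 2.31), Prelp (62.0 ± 13.3), Ogn (45.4 ± 19.6), Bgn (38.4 ± 33.5), Fmod (20.7 ± 13.9) and Aspn (18.9 ± 5.71). The libraries of Dcn, Lum and Prelp did not overlap in this order, while those of Prelp and Ogn, and of Ogn and Bgn, did. Fmod thus held the second place in remaining tissue and the sixth in isolated mitochondria, where Bgn, Fmod and Aspn overlapped one another. The exons of Dcn span 5838 bases over all transcripts while the coding transcript used here has 1758, and those of Bgn 6099 and 2419. Per kilobase of that transcript, a length chosen after the values were seen, the levels in remaining tissue were 178 for Dcn and 20.05 for Bgn, beside 49.0 for Fmod and 19.9 for Prelp. In isolated mitochondria they were 1070 ± 22.9 for Dcn and 96.9 ± 84.5 for Bgn (SD, n = 2), so that Bgn stood above the mean of Lum but overlapped it.

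Except for Bgn on the X chromosome, the genes lie beside relatives, on chromosomes 1, 10 and 13. Kera (keratocan), next to Lum, had 7 and 7 normalized counts in remaining tissue and 9 and 5 in isolated mitochondria, where these are single reads. Omd (osteomodulin), which lies between Aspn and Ogn, had 2 and 0 in remaining tissue. It was at 0 in both libraries of isolated mitochondria, where 0 reads allow up to 27.1 and 15.2 normalized counts. Ecm2, on the other side of Aspn, had 28 and 25 in remaining tissue and 45 and 25 in isolated mitochondria (log2 0.33 ± 0.43, SE, limma adjusted p = 0.600). Btg2, beside Fmod and outside the family, had 19 and 39 against 9 and 10. Nol8, beside Ogn, had 25 and 25 against 0 and 10. Of 11 further genes of the family, 7 were in the table and 2 passed the filter on low values. Podn (podocan) rose from 19 and 23 to 136 and 202 normalized counts (8.05-fold, limma adjusted p = 0.0175), beside 7.38-fold for Lum.

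Most of the listed enzymes that build the sugar chains were not tested. Of 23 enzymes of chondroitin and dermatan sulfate synthesis, 9 were tested and 1 was higher, a share near the 7.32% of all genes, with a median log2 fold change of 0.44. This was Dse, the epimerase that turns chondroitin into dermatan sulfate, at 14 and 14 normalized counts in remaining tissue and 54 and 46 in isolated mitochondria (limma adjusted p = 0.0469). Like Aspn, Dse had a mean under 20 in remaining tissue and entered the test only through its higher group. The same held for Chsy1, Chpf, Chpf2 and Ust. With Dse, these were all 5 tested enzymes with a log2 fold change above 0, and the median of 0.44 is the value of Chpf2. Of 9 enzymes of keratan sulfate synthesis, 2 were tested and neither passed, also at an unadjusted p under 0.05. These were B4galt1 (44 and 42 against 36 and 56, limma adjusted p = 0.906) and Fut8 (30 and 31 against 36 and 35, limma adjusted p = 0.633). B4galt4 had 4 and 5 against 9 and 5 and was too low to test. The 22 chondroitin and dermatan sulfate enzymes in the table rested on 41 and 92 reads in all in isolated mitochondria.

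Most collagens on the list of partners were higher in isolated mitochondria. Of 37 listed symbols of collagens, growth factors, receptors and proteases known as partners, 26 were tested and 15 passed. All 15 were higher, and the median log2 fold change was 1.99. The list holds Ctgf and Ccn2, which are names of the same gene, found here as Ccn2. The smallest adjusted p-values belonged to Lrp1, the endocytic receptor of decorin (393 and 410 against 2154 and 2347, limma adjusted p = 0.00780), and to Col6a1 (122 and 128 against 1095 and 1492), Col6a2 (149 and 160 against 1394 and 2277) and Col5a1 (119 and 142 against 1013 and 1705). Of the 10 collagen genes of the list that were tested, 9 passed, and Col12a1 (53 and 34 against 27 and 157, limma adjusted p = 0.654) did not. The summed normalized counts of the 7 proteoglycan genes were 37.3% and 29.2% of those of the 10 collagen genes in remaining tissue, and 19.8% and 11.7% in isolated mitochondria. Among 14 other proteoglycan core proteins tested, 6 were higher and 1 was lower, with a median of 1.04. Sdc2 and Gpc3, which were called higher, and Sdc1 and Spock2, which were not, had a mean under 20 in remaining tissue. They entered the test only through their higher group. Vcan (versican) had 23 and 25 against 154 and 126. Hspg2 (perlecan), the basement membrane proteoglycan that Prelp binds, had 746 and 802 against 2868 and 4356. Col18a1 had 32 and 35 against 389 and 187. Gpc1 (glypican-1), a membrane-anchored heparan sulfate proteoglycan, went the other way with 465 and 499 against 154 and 197 (limma adjusted p = 0.0265).

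**Figure D3:**
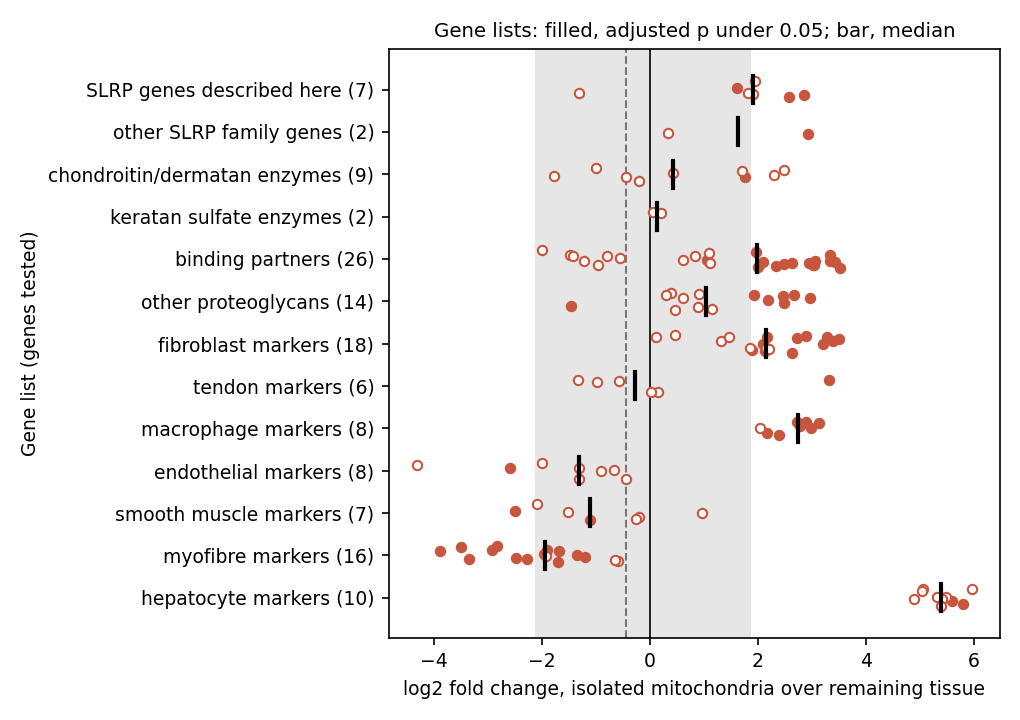
Log2 fold change, isolated mitochondria over remaining tissue, of every tested gene of each list (number tested in brackets); filled points passed an adjusted p of 0.05 in limma, black bars are medians, the grey band is the 10th to 90th percentile of all genes tested and the dashed line their median. The proteoglycan genes (median 1.91) lie with fibroblast (2.16), partner (1.99) and macrophage (2.75) lists, apart from myofibre (-1.94) and endothelial (-1.32) markers. Genes with a mean under 20 in remaining tissue entered only through higher values in isolated mitochondria.

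Most fibroblast markers tested rose in isolated mitochondria, while tendon markers had no common direction. Of 20 fibroblast markers 18 were tested and 11 passed, all higher, with a median log2 fold change of 2.16. Dpp4 and Thy1, which did not pass, entered the test only through their higher group. The fibroblast list summed to 3396 and 3523 normalized counts in remaining tissue and 18368 and 25923 in isolated mitochondria. Of these markers Mfap5 (9 and 10 in remaining tissue) was at 0 in isolated mitochondria replicate 1, where 0 reads allow up to 27.1. It was at 25 in replicate 2 (5 reads) and was too low to test. Serpinf1 had 57 and 62 against 652 and 607, and Gsn, an abundant fibroblast transcript, had 1385 and 1422 against 11356 and 14945. Fn1 (275 and 306 against 1203 and 1295) and Clec3b (46 and 45 against 262 and 314) were also higher. The 7 proteoglycan genes summed to 20.7% and 17.3% of the fibroblast markers in remaining tissue and to 13.9% and 11.5% in isolated mitochondria. Of 6 tendon markers tested, 1 passed (Scx, 7 and 5 against 90 and 51), and the median log2 fold change was -0.27. Scx and Angptl7 (24 and 13 against 9 and 35) entered the test only through their higher group. The median lies between the log2 fold changes of Angptl7 (0.02) and Thbs4 (-0.56). The summed level of the list was 424 and 400 in remaining tissue and 279 and 688 in isolated mitochondria. Mkx (2 and 1 in remaining tissue) and Ptx4 (1 and 1) were at 0 in both libraries of isolated mitochondria. There 0 reads allow up to 27.1 and 15.2 normalized counts, above these tissue values. The part of fibroblasts and tendon cells in the result was not tested.

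Other cell types did not share 1 direction. Of 8 macrophage markers tested, 7 were higher, with Csf1r at 26 and 30 against 208 and 187, Mrc1 at 28 and 34 against 217 and 202, C1qb at 10 and 13 against 81 and 116, and Lyz2 at 46 and 57 against 217 and 339. Adgre1 (6 and 6 in remaining tissue), C1qa (11 and 11), C1qb and C1qc (9 and 12) were under the minimum mean there. These genes entered the test only through their higher group. The macrophage list summed to 165 and 201 in remaining tissue and 1002 and 1284 in isolated mitochondria. Of 16 myofibre markers, 13 passed, all lower, with Myh2 at 13063 and 11841 against 1511 and 1791, Atp2a1 at 37987 and 37650 against 5547 and 5054, Ryr1 at 15606 and 14804 against 1638 and 1113, and Myh4 at 130847 and 139440 against 15166 and 11712. The proteoglycan genes equalled 0.115% and 0.102% of the summed myofibre markers in remaining tissue and 2.88% and 3.78% in isolated mitochondria. Of 8 endothelial markers tested, 1 was lower (Cdh5, 168 and 165 against 36 and 20). Emcn (8 and 12 in remaining tissue), Robo4 (20 and 27) and Cldn5 (11 and 11) were at 0 in both libraries of isolated mitochondria. There 0 reads allow up to 27.1 and 15.2 normalized counts in replicates 1 and 2. Of 7 smooth muscle and pericyte markers tested, Abcc9 (458 and 434 against 81 and 76) and Des (4563 and 4300 against 2081 and 2044) were called lower. Without overlap between the groups, 4 of the 7 were lower and 1 higher. The latter was Notch3 (68 and 61 against 100 and 162, limma adjusted p = 0.117). Acta2 (53 and 68 against 36 and 76) and Tagln (30 and 29 against 109 and 5) overlapped. The lists of Schwann cells (Pmp22, 28 and 25 against 45 and 40), adipocytes (Fabp4, 131 and 206 against 90 and 96) and cartilage and bone cells (Col11a2, 9 and 7 against 36 and 71) had 1, 3 and 1 genes tested. None passed in limma after adjustment, while Col11a2 had an unadjusted limma p of 0.0102. Col11a2 was under the minimum mean in remaining tissue and entered the test only through its higher group.

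Hepatocyte markers, which muscle should lack, separated the replicates. All 10 had higher values in isolated mitochondria and 2 passed, Apoa2 (12 and 3 against 986 and 162) and Serpina1a (12 and 4 against 1068 and 142). All markers but Alb and Apob, so also both that passed, were under the minimum mean in remaining tissue. These entered the test only through their higher group. The hepatocyte list summed to 351 in replicate 1 and 59 in replicate 2 of remaining tissue, and 15719 and 2899 in isolated mitochondria. The summed normalized counts of the proteoglycan genes were 704 and 608 in remaining tissue and 2559 and 2984 in isolated mitochondria. Any part of hepatocyte RNA in the result was not tested.

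**Figure D4:**
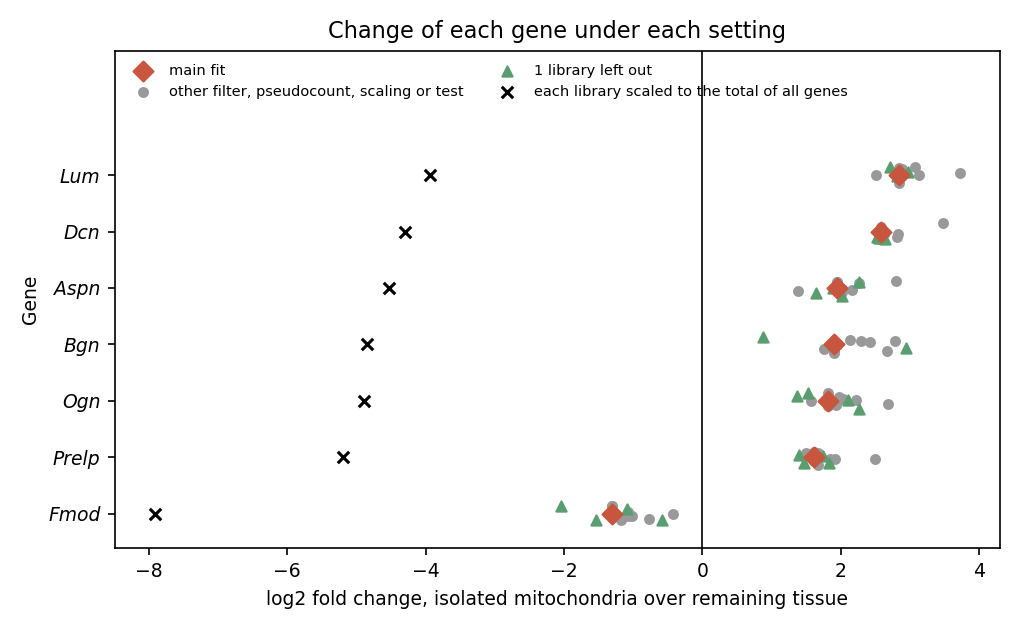
Log2 fold change of each gene, isolated mitochondria over remaining tissue, in the main fit (diamonds), with 1 library left out (triangles), with other filters, pseudocounts, scalings or tests (circles) and with each library scaled to the total of all genes (crosses). Crosses lie between -7.91 (Fmod) and -3.93 (Lum), and all other points of a gene keep its sign.

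With each library scaled to the total of all genes, where mitochondrial RNA fills the libraries of isolated mitochondria, all 7 genes were lower, with log2 fold changes from -7.91 for Fmod to -3.93 for Lum and a median of -4.84. The median over all genes tested then moved from -0.44 to -6.90. Relative to the median of all genes tested, Dcn lay 3.03 higher on the log2 scale in the main fit and 2.60 to 3.27 higher over 15 alternative settings. Lum lay 2.84 to 3.53 higher, Prelp 1.71 to 2.30, Ogn 1.79 to 2.54, Aspn 1.72 to 2.69 and Bgn 1.31 to 3.22. Fmod lay below that median in all 15 settings, with differences from -1.61 to -0.30.

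Among genes tested, those whose profile over the 4 libraries was nearest to the median profile of the 7 were Olfml3, Fndc1, Igfbp6, Fstl1 and Lyve1. Olfml3 (12 and 11 in remaining tissue) and Lyve1 (8 and 7) were under the minimum mean of 20 there. These 2 entered the search only through their higher group. Distances were Euclidean on log2 values centred on each gene, from 0.0735 for Olfml3 to 0.143 for Lyve1, while the farthest of the 7, Fmod, lay at 3.27. Fndc1 had 105 and 102 normalized counts in remaining tissue and 326 and 506 in isolated mitochondria. Fstl1, which encodes a secreted glycoprotein, had 87 and 87 against 244 and 395. The likeness rests on 4 libraries in 2 groups and is mostly the difference between them.

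All 7 genes carry the annotation term proteinaceous extracellular matrix in the deposited table. Of the 113 other tested genes with this term, 47 (41.6%) were higher in isolated mitochondria and 3 (2.65%) were lower, with a median log2 fold change of 1.67. They also carry the broader term extracellular region, where 13.5% of 1484 other tested genes were higher and 7.75% lower, with a median of 0.04. Dcn, Lum, Aspn, Bgn and Ogn lay above the median of the matrix term, Prelp just below it, and Fmod far below. Among 849 tested genes with the term mitochondrion, 4.83% were higher and 9.07% lower, with a median of -0.55. All 7 genes but Fmod had a fold change above the median of the genes with the mitochondrial term.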

How the data were processed

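Libraries were made from 10 ng of total RNA with a stranded low-input kit. The study adjusted the fragmentation time of mitochondrial samples to the size of their RNA, so that fragmentation cannot be told apart from the groups. For heart the study describes treatment of isolated mitochondria with digitonin and RNase A. Per the submitters' processing notes, reads were processed with Trimmomatic 0.39, STAR 2.7.10a (build mm10), featureCounts 2.0.2 and DESeq2 1.30.1; the methods give other versions of the last 3. Only reads assigned to 1 gene and 1 place were kept. The deposited values are a signal: whole-number gene counts that the authors divided by size factors and rounded.

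Low values (under 2000) were whole multiples of the value of 1 read, within rounding, for 99.9% and 99.97% of values in isolated mitochondria replicates 1 and 2, which gave 42751199 and 35305953 reads. Depths of remaining tissue (15703763 and 15301589) were estimated from the medians of ratios over 8993 genes above 0 in all libraries. These medians fix only the product of the size factors of remaining tissue. The same factor, 7.05 reads per normalized count, was therefore assumed for both of its libraries.

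The 6916 genes with a mean of at least 20 were tested with limma 3.58.1 (R 4.3.3, eBayes with trend) on log2(normalized count + 1), so fold changes of low genes are understated, with Benjamini-Hochberg adjustment over all of them and a threshold of 0.05. Alternatives used edgeR 4.0.16 and DESeq2 1.42.0 on recovered or estimated reads. The fit was tested on simulated data. Annotation was GENCODE M21 on GRCm38; similarity was searched with BLAST 2.17.0. A copy of the mitochondrial genome is a nuclear gene covered for at least 50% by similarity to mitochondrial transcripts.

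All 7 genes were named. From each list, up to 4 genes with the smallest adjusted p were named, or, where none passed, up to 3 with the highest mean, along with genomic neighbours and the 5 nearest profiles. The genes and lists were chosen with earlier results of these data known.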

Additional observations from a re-analysis of the deposited data

How the results depend on the processing

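Depth limits these results. Nuclear genes tested had a median of 5 reads in isolated mitochondria replicate 1 and 10 in replicate 2, and Fmod, Aspn, Ogn and Bgn had 4 to 10 reads in replicate 1. Read depths of remaining tissue are estimates, and rounding hides differences of up to 7.05 reads there.

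Of 105 values of the 7 genes under 15 alternatives, 98 came from settings other than scaling to the total of all genes, and all 98 kept their direction. Of the 105, 74 stayed on their side of the threshold, 4 no longer passed, 21 newly passed and 6 turned direction. The 6 came from equal all-gene totals, which gave log2 fold changes of -4.30 for Dcn, -3.93 for Lum, -4.84 for Bgn, -4.89 for Ogn, -5.20 for Prelp and -4.54 for Aspn. That scaling called 0 of the 7 genes higher and 7 lower, gave a median of -4.84 over them, and called 38 genes higher and 6694 lower in all, since mitochondrial RNA fills the libraries of isolated mitochondria. The ratio of the summed share, isolated mitochondria over remaining tissue, was 0.0391 of all genes and 7.86 of nuclear genes outside copies. Scaled to those nuclear genes, the test called 5 of the 7 higher with a median of 2.79, and 1107 genes higher and 183 lower in all. The cause of the next differences was not tested. Without a filter 3026 genes were lower, with a mean of at least 5 there were 283 higher and 399 lower, and without the trend 374 were lower. On reads, edgeR with the deposited size factors called 6 of the 7 higher (939 genes higher and 1216 lower in all), edgeR with TMM 6 (1106 higher), and DESeq2 6 (1169 higher and 1326 lower).

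Leaving out 1 library in turn gave 2 to 5 of the 7 genes called higher, 0 to 1 called lower, and 296 to 1724 higher and 176 to 3198 lower among all genes. The lone library left in a group is then assumed to vary like the other group. Without isolated mitochondria replicate 1 or replicate 2, 5 of the 7 were called higher (beside 1724 and 1643 genes higher in all), and without either library of remaining tissue 2 were (Dcn and Lum).

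With the replicate number as a replicate block, 5 of the 7 genes were called higher and 1 lower. Among all 6916 genes tested, 630 were higher and 1144 lower. Bgn (limma adjusted p = 0.00288), Ogn (0.00993) and Fmod (0.0415) passed with the block and not in the main result. Deviations of same-numbered libraries correlated at 0.141 across genes, over only 2 pairs. Summed hepatocyte markers were higher in replicate 1 of both fractions, but no label says what a replicate number marks, so the block was not used for the main result.

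Per kilobase of 1 coding transcript, a length chosen after seeing the data, the levels of Dcn and Bgn in remaining tissue moved by more than their spread, and those of the other 5 genes did not.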
